A study of Mus musculus with 6 samples.

Results

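The genes examined here are 10 mouse genes of the inflammasome and of pyroptosis, the lytic death that inflammasomes set off: the cytokine genes Il18, Il1b and Il1a, their antagonists Il18bp and Il1rn, the adaptor gene Pycard, the inflammatory caspase genes Casp1 and Casp4, and the gasdermin genes Gsdmd and Gsdme. They were found by gene symbol in the platform annotation, which gave 15 probe sets (a probe set is a group of oligonucleotides on the array read as 1 value), out of 18193 named genes and 45101 probe sets. The study compared 3 arrays of mouse cells labelled as stably expressing an IRF2 open reading frame with 3 arrays of the same cells labelled as expressing GFP, both from the lentiviral plasmid pLenti6.3. The cells of both groups were a primary culture numbered 3346 of iKAP, a mouse colorectal cancer model in which Apc and Trp53 can be deleted in the gut epithelium; DMEM with a tetracycline-free supplement was the medium. The promoter of the plasmid, the allele state of the culture and the number of separate cell pools behind the 3 arrays of a group were not given in the sources used here. Whether each array had a culture of its own is not stated, and the p-values below speak of array-to-array spread, possibly technical, and the number of arrays limits the precision.

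An inflammasome forms when a sensor protein meets a danger signal and gathers the adaptor ASC, the product of Pycard, and pro-caspase-1. Active caspase-1 cuts the precursors of interleukin 1 beta and interleukin 18 into their secreted forms and cuts gasdermin D, whose freed N-terminal part opens pores in the plasma membrane. Caspase-11, the product of mouse Casp4, binds bacterial lipopolysaccharide in the cytosol and also cuts gasdermin D. Gut epithelial cells are a known source of interleukin 18, and IRF2, which belongs to the interferon regulatory factors, is known to activate transcription of Gsdmd. The arrays read RNA, so no processing of any of these proteins was measured.

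Il18, Casp1 and Gsdmd were each more than 2-fold higher on the arrays labelled IRF2 than on the GFP control arrays, Casp4 was higher by less, and Il1rn was higher by a small margin. Gsdme fell in its brighter probe set, Il1b and Il18bp did not pass the test, and Il1a and Pycard were too dim to be tested in the filtered data. Levels are given as probe set intensities on a linear scale, and changes as log2 fold changes, labelled IRF2 over GFP control, with their standard error (SE). Tests were made with limma over 12795 genes, each represented by its brightest probe set and each with a mean above an intensity of 11.3, the 40th percentile of all probe sets that are not array controls. The threshold was a Benjamini-Hochberg adjusted p of 0.05. Of the 8 genes tested, 5 rose and 1 fell. Over all tested genes 36.3% passed, 16.5% higher and 19.8% lower, so a call by itself was common in this comparison. A call together with a rise of at least 2-fold was reached by 0.438% of all tested genes, and by 3 of these 8. Each of the 8 had a mean above 11.3 in both groups, so none was tested only through its brighter group. Their median log2 fold change was 0.43, beside -0.0007 over all tested genes.

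The transgene label was checked first. The probe set named to Irf2 read 37.0, 36.6 and 35.2 on the arrays labelled IRF2, against 65.4, 60.5 and 62.0 on the GFP control arrays (log2 fold change -0.79, SE 0.06, limma adjusted p = 1.73e-07). It goes against the label, and neither the part of the transcript that it reads nor the species of the IRF2 insert was given in the sources used here. The group is therefore called "labelled IRF2" throughout. Of 10 colon epithelial markers, 7 were tested by the fit described above, and 2 rose and 2 fell. The keratin genes Krt8 and Krt18 rose by 0.50 (SE 0.02) and 0.08 (SE 0.02), and the adhesion genes Epcam and Cdh1 fell by 0.81 (SE 0.11) and 0.75 (SE 0.04). The 2 probe sets of Epcam gave -0.81 and -0.04, and their average -0.43. The limma adjusted p of Krt18 ran up to 0.0866 over the alternative fits listed at the end. Epcam averaged 27.8 ± 5.31 in the group labelled IRF2 and 48.2 ± 1.27 in the GFP control group, and Cdh1 127 ± 2.80 in the group labelled IRF2 and 214 ± 2.26 in the GFP control group (SD, n = 3 each). The intestinal transcription factor gene Cdx2, at 86.0 ± 3.76 in the group labelled IRF2 and 93.5 ± 3.52 in the GFP control group, did not pass, and Vil1, Krt20 and Cdx1 lay under the intensity filter. The part of these markers in the results below was not tested.

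The promoters of the 3 genes on chromosome 9 that rose are printed here because IRF proteins bind a known DNA core, AANNGAAA, which occurs in the promoters of many interferon-responsive genes. Sequences are RefSeq's for the build GRCm38.p6, on the strand of the gene, from 250 bases before the start to 50 after it. Il18 lies at chr9:50554450-50554749, Casp1 at chr9:5298267-5298566 and the first of 2 listed starts of Casp4 at chr9:5308599-5308898, all on the plus strand. Capitals mark a match to AANNGAAA on either strand.
Il18: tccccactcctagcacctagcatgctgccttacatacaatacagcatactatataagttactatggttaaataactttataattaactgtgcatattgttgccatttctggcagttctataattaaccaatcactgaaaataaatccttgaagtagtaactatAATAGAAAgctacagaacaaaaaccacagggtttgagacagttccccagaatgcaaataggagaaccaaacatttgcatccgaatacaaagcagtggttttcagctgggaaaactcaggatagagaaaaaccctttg
Casp1: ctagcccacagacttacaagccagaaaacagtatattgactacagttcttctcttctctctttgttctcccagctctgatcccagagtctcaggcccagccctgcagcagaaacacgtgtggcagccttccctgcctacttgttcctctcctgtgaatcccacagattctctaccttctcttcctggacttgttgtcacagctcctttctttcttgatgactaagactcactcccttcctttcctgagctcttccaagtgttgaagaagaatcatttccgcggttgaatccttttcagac
Casp4: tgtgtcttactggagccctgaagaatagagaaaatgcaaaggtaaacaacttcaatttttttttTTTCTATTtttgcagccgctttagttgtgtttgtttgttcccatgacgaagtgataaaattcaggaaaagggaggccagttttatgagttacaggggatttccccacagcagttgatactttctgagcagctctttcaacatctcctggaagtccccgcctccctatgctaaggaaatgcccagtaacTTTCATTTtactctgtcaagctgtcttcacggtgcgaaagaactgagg
The Il18 promoter held 1 match, on the forward strand at -87 from the start, and the Casp4 promoter held 2, both on the reverse strand, at -186 and at 3. The Casp1 promoter had no match in this window. Of the 10 genes, 9 had promoter entries, 12 windows in all; Gsdmd had none. The core was found in 7 windows of 5 genes, Il18, Casp4, Il1b, Il1rn and Pycard; windows of the same gene can share bases. The core was held by 23.9% of all 32851 promoter windows. A longer form, GAAA repeated after 2 free bases, which contains the core, was found in 0 of the 12 windows and in 3.44% of all windows, and the STAT element TTCNNNGAA in 0 of the 12 and in 8.30% of all windows. A match is a run of letters and not a shown binding site.

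**Figure D1:**
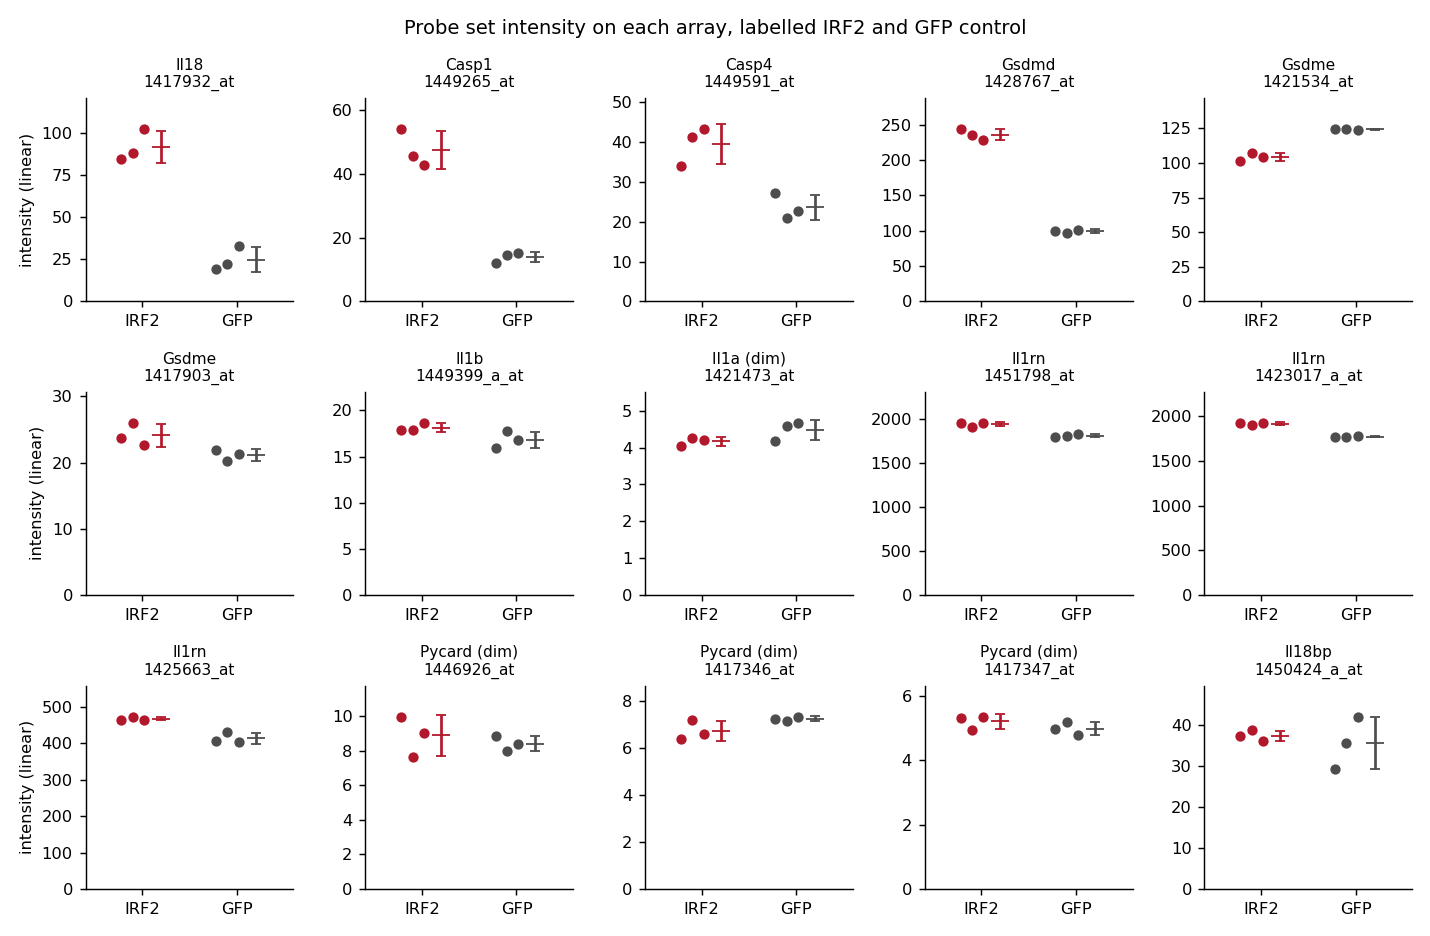
Intensity (linear scale, each vertical axis starting at 0) of the 15 probe sets on each array; points are arrays, labelled IRF2 in red on the left and GFP control in grey on the right, and bars are means with the SD of 3 arrays. The arrays of the groups are separate for Il18, Casp1, Casp4 and Gsdmd, and overlap for Il18bp and for the dim probe sets of Il1a and Pycard.

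The cytokine genes behaved differently from each other. Il18 read 84.3, 88.1 and 102 on the arrays labelled IRF2, against 18.9, 21.996 and 33.1 on the GFP control arrays. All 3 arrays labelled IRF2 were above all 3 controls, and the controls were spread widely, with replicate 3 the highest. The means were 91.6 ± 9.51 in the group labelled IRF2 and 24.7 ± 7.44 in the GFP control group (SD, n = 3 each). The log2 fold change came to 1.93 with an SE of 0.15 (limma adjusted p = 8.29e-08), the 10th largest rise of 12795 genes. Leaving out each array in turn gave log2 fold changes between 1.76 and 2.16. With 16 added to each intensity before the log, which damps changes of dim probe sets, the log2 fold change of Il18 was 1.42.

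Il1b, whose product is the other main substrate of caspase-1, read 17.8, 17.9 and 18.7 on the arrays labelled IRF2, against 15.9, 17.7 and 16.8 on the GFP control arrays. The arrays of the groups did not overlap, and the difference did not pass (log2 fold change 0.11, SE 0.08, limma adjusted p = 0.343). Arrays of the groups did not overlap in 46.2% of all tested genes, 22% higher and 24.2% lower, and in 7 of the 8 tested members. Il1a, which encodes interleukin 1 alpha, a cytokine active without caspase-1 cleavage, read 4.04, 4.25 and 4.22 on the arrays labelled IRF2, against 4.17, 4.59 and 4.67 on the GFP control arrays. The groups overlap, and all values fall between 3.69 and 6.52, the extremes of the 3 tryptophan control probe sets, which are bacterial genes. Il1a was under the intensity filter; in a fit of all 18193 genes without the filter its log2 fold change was -0.10 (SE 0.08, limma adjusted p = 0.442), where 24.9% of genes passed.

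Among the antagonists, only Il1rn passed the test, and its change was small. Il1rn encodes the interleukin 1 receptor antagonist, which occupies the receptor of interleukin 1 without signalling. Its brightest probe set read 1959, 1919 and 1961 on the arrays labelled IRF2, against 1798, 1807 and 1834 on the GFP control arrays. The groups were separate, and the log2 fold change was 0.10 with an SE of 0.02 (limma adjusted p = 9.67e-04). Of its other 2 probe sets, one gave a log2 fold change of 0.11 (SE 0.02) and the other, at 468 ± 4.95 in the group labelled IRF2 and 414 ± 14.7 in the GFP control group (SD, n = 3 each), gave 0.18 (SE 0.03). In a limma fit of each of 27022 probe sets on its own, where 28.7% passed (13% higher), all 3 were called, with adjusted p of 0.00187, 6.46e-04 and 8.06e-04. The call of the brightest was lost there without the intensity trend (adjusted p = 0.0681).

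Il18bp encodes a secreted protein that binds and neutralises interleukin 18. It read 37.3, 38.6 and 36.2 on the arrays labelled IRF2, against 29.2, 35.7 and 42.0 on the GFP control arrays. The arrays labelled IRF2 all lay inside the wider range of the controls (log2 fold change 0.08, SE 0.10, limma adjusted p = 0.596). Its sign turned without GFP control replicate 1 (-0.05). The log2 ratio of Il18 to Il18bp, taken within each array, was higher by 1.85 on the arrays labelled IRF2 than on the GFP control arrays (means 1.29 ± 0.183 and -0.56 ± 0.186, SD, n = 3 each, given as a description).

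Casp1 and Casp4 both rose. Casp1 read 54.1, 45.7 and 42.7 on the arrays labelled IRF2, against 12.02, 14.4 and 15.3 on the GFP control arrays. The lowest array labelled IRF2 was well above the highest control, and the controls were close to the intensity filter of 11.3. The means were 47.5 ± 5.92 in the group labelled IRF2 and 13.9 ± 1.71 in the GFP control group (SD, n = 3 each). The log2 fold change came to 1.77 with an SE of 0.11 (limma adjusted p = 5.48e-09). With 16 added before the log this came to 1.08.

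Casp4 read 33.9, 41.4 and 43.3 on the arrays labelled IRF2, against 27.2, 21.1 and 22.6 on the GFP control arrays. Replicate 1 was the lowest of the arrays labelled IRF2 and replicate 1 the highest of the controls, and the groups were still separate. The log2 fold change was 0.74 (SE 0.11, limma adjusted p = 5.35e-05), or 0.49 with 16 added before the log, and 0.67 to 0.85 when each array was left out in turn. Casp1 and Casp4 lie next to each other on chromosome 9 among the genes with a probe set.

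Of the gasdermin genes, Gsdmd rose, while the probe sets of Gsdme disagreed with each other. Gsdmd, which encodes the pore-forming substrate of caspase-1 and caspase-11, read 244, 235 and 228 on the arrays labelled IRF2, against 99.8, 96.3 and 101 on the GFP control arrays. The arrays within each group lay close together and the groups were far apart, with means of 236 ± 7.79 in the group labelled IRF2 and 99.2 ± 2.601 in the GFP control group (SD, n = 3 each). The log2 fold change was 1.25 (SE 0.04, limma adjusted p = 1.69e-11), the smallest adjusted p of the 10 genes. As the brightest of the members that rose more than 2-fold, it kept 1.13 with 16 added before the log.

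Gsdme, formerly Dfna5, encodes a gasdermin cut by caspase-3, and its 2 probe sets disagreed. The brighter read 101, 107 and 104 on the arrays labelled IRF2, against 125, 125 and 124 on the GFP control arrays, with means of 104 ± 2.98 for the group labelled IRF2 and 124 ± 0.396 for the GFP control group (SD, n = 3 each; log2 fold change -0.26, SE 0.05, limma adjusted p = 3.82e-04). The dimmer read 23.7, 26.0 and 22.6 on the arrays labelled IRF2, against 21.97, 20.2 and 21.4 on the GFP control arrays, and was higher by 0.19 (SE 0.08) without passing (adjusted p = 0.119 in the fit of single probe sets). In both probe sets the arrays of the groups were separate, in opposite directions. When both probe sets were averaged, the log2 fold change was -0.04 and the call was lost (limma adjusted p = 0.641). Which parts of the Gsdme transcripts the probe sets read was not examined.

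Pycard, the adaptor that joins sensors to caspase-1, was dim in all 3 of its probe sets. The brightest read 9.995, 7.68 and 9.02 on the arrays labelled IRF2, against 8.87, 7.99 and 8.42 on the GFP control arrays. The other 2 lay between 4.95 and 7.19 on the arrays labelled IRF2 and between 4.78 and 7.36 on the GFP control arrays. The groups overlapped in each of the 3. Without the filter the log2 fold change of Pycard was 0.07 (SE 0.10, limma adjusted p = 0.717), and those of its other probe sets were -0.11 and 0.07. No change of Pycard was detected, and its absence from the cells is not shown.

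**Figure D2:**
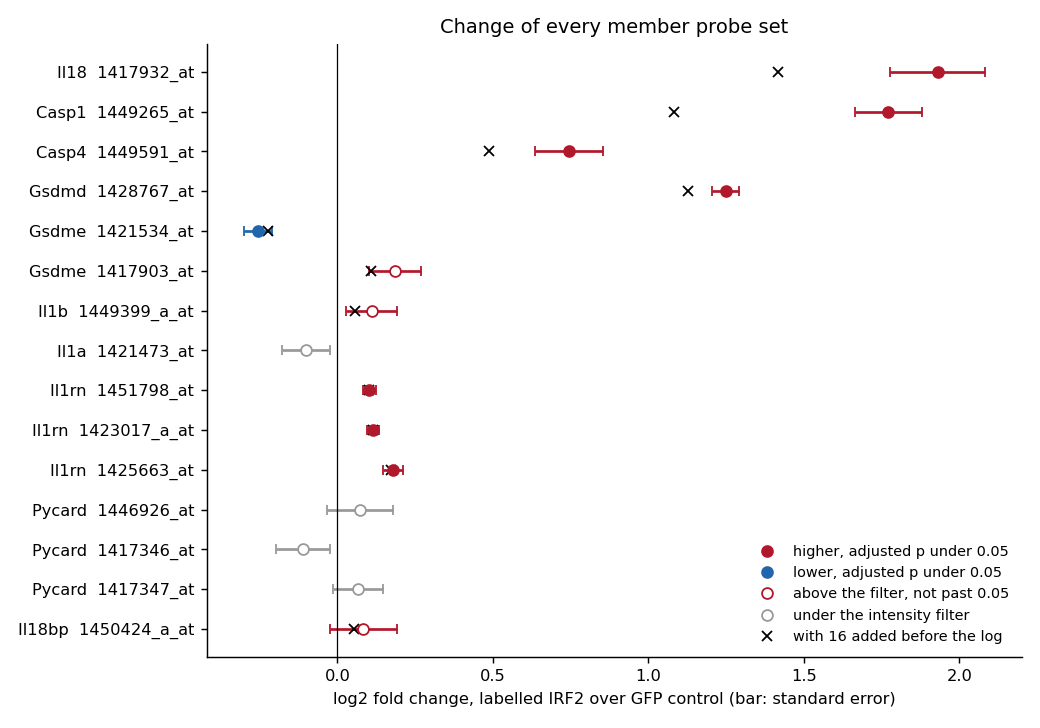
Log2 fold change of the 15 probe sets, labelled IRF2 over GFP control (bars, SE), from the fit of single probe sets; filled points passed an adjusted p of 0.05, grey points lay under the intensity filter, and crosses give the value with 16 added before the log. Il18 (1.93), Casp1 (1.77), Gsdmd (1.25) and Casp4 (0.74) stand to the right, and the 2 Gsdme probe sets lie on opposite sides of 0.

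**Figure D3:**
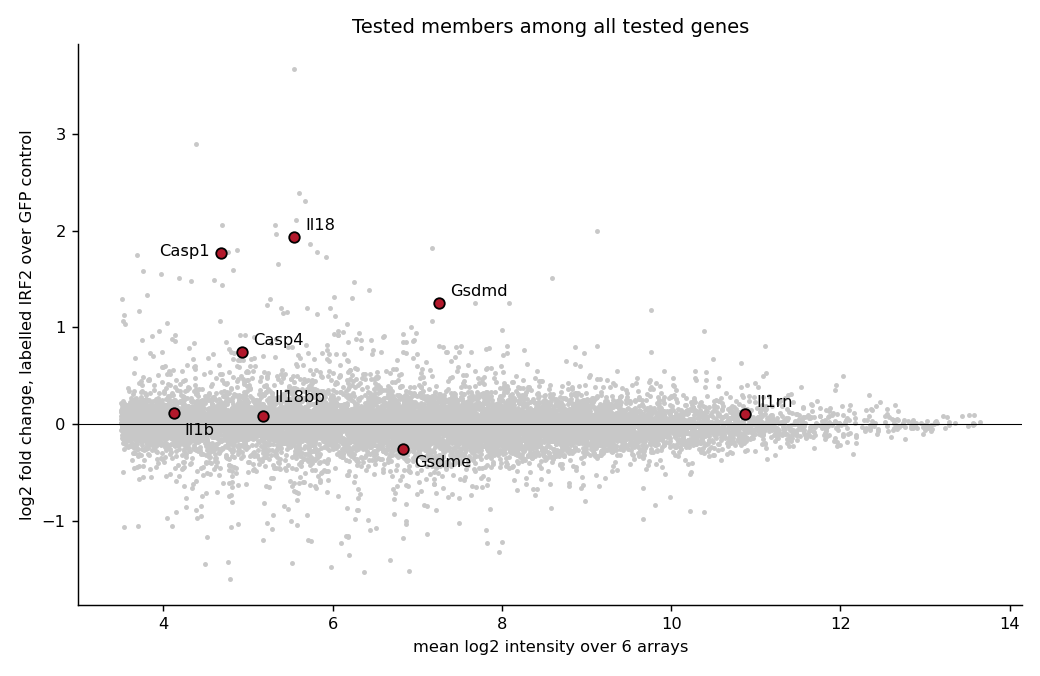
Log2 fold change against mean log2 intensity for 12795 tested genes (grey), with the 8 tested inflammasome and pyroptosis genes in red. Il18, Casp1 and Gsdmd lie among the 0.438% of genes that passed and rose at least 2-fold, while Il1rn is bright and close to 0.

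The arrays could also be read for other cells as a source of these transcripts. Caspase-1, gasdermin D and interleukin 18 are abundant in macrophages. Of 13 macrophage and leukocyte markers, 11 had a probe set and 6 were tested. Cd14 rose, by 0.18 (SE 0.06, limma adjusted p = 0.035, up to 0.152 over the alternatives), and the others did not pass. Fcgr1 came next by p, at 0.20 (SE 0.09, limma adjusted p = 0.106, and 0.030 to 0.278 over the alternatives). It read 11.9, 12.4 and 12.2 on the arrays labelled IRF2, against 10.1, 10.3 and 11.4 on the GFP control arrays. Its control mean of 10.6 was under the filter of 11.3. The summed intensity of the 11 was 323 to 334 on the arrays labelled IRF2 and 292 to 328 on the GFP control arrays. Cd14 averaged 137 ± 11.3 in the group labelled IRF2 and 120 ± 8.80 in the GFP control group (SD, n = 3 each). In the same order of groups, Cd68 averaged 78.0 and 77.6, Csf1r 31.6 and 32.1, and Cd3e 21.8 and 21.4. These means lay above the range of the tryptophan controls. The pan-leukocyte marker Ptprc read 4.40 to 5.42 on the arrays labelled IRF2 and 4.30 to 4.71 on the GFP control arrays, within the range of the tryptophan controls. The macrophage marker Adgre1 read 7.29 to 8.87 on the arrays labelled IRF2 and 7.52 to 8.53 on the GFP control arrays, and Lyz2, bright in macrophages, read 12.7 to 14.2 on the arrays labelled IRF2 and 12.9 to 13.1 on the GFP control arrays. Of 8 fibroblast markers 5 were tested. Pdgfra rose by 0.70 (SE 0.10, and 0.36 when its probe sets were averaged), while Pdgfrb fell by 0.40 (SE 0.08), a call that averaging its probe sets removed. Col3a1 gave 0.18 (SE 0.09, limma adjusted p = 0.153) and Dcn -0.07 (SE 0.08, limma adjusted p = 0.598), and neither passed. The part of these markers in the changes of Il18, Casp1, Casp4 and Gsdmd was not tested. In RNA from a whole culture, more cells that express a gene and more RNA per cell cannot be told apart.

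Upstream of the caspases, few sensors were measured above the filter. Of 14 inflammasome sensor genes, 10 had a probe set and 4 were tested, of which 1 rose. Naip6, of the NAIP family that senses bacterial flagellin and secretion systems in mice, read 16.5, 19.2 and 19.1 on the arrays labelled IRF2, against 12.1, 14.6 and 11.8 on the GFP control arrays (log2 fold change 0.51, SE 0.10, limma adjusted p = 0.00107; 0.25 with 16 added before the log). Its relatives Naip2 and Naip5 were under the filter; Naip2 read 9.09 to 12.3 on the arrays labelled IRF2 and 5.42 to 6.79 on the GFP control arrays, where most values are in the range of the tryptophan controls. Naip5 read 5.08 to 5.87 on the arrays labelled IRF2 and 4.20 to 4.48 on the GFP control arrays, all within the range of those controls. On the arrays labelled IRF2, Naip2 lay above that range. No fold change is given for either, since their GFP control values lay in or near it. NAIP genes are near-identical copies that can share probes, so these values are uncertain for a single copy. Nlrp3, the sensor of membrane damage and ion loss, gave -0.04 (SE 0.08, adjusted p = 0.791), Aim2, the sensor of cytosolic DNA, -0.01 (SE 0.07, adjusted p = 0.957) and Mefv, which encodes pyrin, -0.08 (SE 0.08, adjusted p = 0.509); the signs of Nlrp3 and Aim2 turned when single arrays were left out.

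Of 5 genes that help sensors assemble, all tested, 1 rose and 1 fell. P2rx7, the ATP-gated channel upstream of NLRP3, read 34.6, 34.5 and 34.6 on the arrays labelled IRF2, against 28.5, 27.5 and 32.8 on the GFP control arrays (log2 fold change 0.23, SE 0.08, limma adjusted p = 0.0337; 0.15 with 16 added before the log). Of the 6 fits that each left out 1 array, only that without GFP control replicate 3 kept the call, and the others gave adjusted p of 0.0752 to 0.13. The call also went without the filter (0.0507) and with its probe sets averaged (0.0698). Panx1, a channel that releases ATP, fell by 0.23 (SE 0.05, adjusted p = 0.0033), to a mean of 79.9 ± 3.36 with IRF2 as label, against 93.9 ± 3.51 for GFP control (SD, n = 3 each). Nek7, a kinase that NLRP3 needs, gave 0.02 (SE 0.03) and Txnip, a thioredoxin-binding protein, -0.09 (SE 0.06), and neither passed.

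Among other death effectors, Casp6, an effector caspase of apoptosis, rose by 0.29 (SE 0.05, limma adjusted p = 1.10e-04). It read 121, 125 and 123 on the arrays labelled IRF2, against 102, 99.3 and 101 on the GFP control arrays, and averaging its 2 probe sets gave 0.14 (adjusted p = 0.0504). It was the only gene called of 6 tested in a list of 8 other caspases. Casp12, which lies beside Casp1 and Casp4, gave 0.12 (SE 0.06, limma adjusted p = 0.103) and did not pass. Casp8, the apical caspase of death receptors, gave 0.09 (SE 0.04, limma adjusted p = 0.0773), and Casp9 0.08 (SE 0.07, limma adjusted p = 0.42). Casp8 passed under quantile normalization (0.0479), with the replicate block (0.0195) and without GFP control replicate 1 (0.00619), and Casp12 without IRF2 replicate 1 (0.0239). Of 9 other gasdermin and membrane rupture genes, 2 were tested and neither passed; Ninj1, whose product ruptures the membrane at the end of pyroptosis, gave 0.07 (SE 0.03, adjusted p = 0.132; 0.0217 without GFP control replicate 1), and Gsdma2 0.12 (SE 0.08). Of 7 brakes and membrane repair genes, 6 were tested and 1 fell: Vps4a, an ATPase of the ESCRT machinery that repairs gasdermin pores, read 314, 310 and 300 on the arrays labelled IRF2, against 360, 360 and 354 on the GFP control arrays (log2 fold change -0.22, SE 0.03, adjusted p = 5.73e-05). Its relative Vps4b gave -0.04 (SE 0.03), Tnfaip3, a brake on NF-kappaB, -0.08 (SE 0.05) and Trim30a 0.20 (SE 0.14; adjusted p = 0.301, and 0.0183 without GFP control replicate 2). Serpinb1a, an inhibitor of inflammatory caspases, lay under the filter, at 7.32 ± 0.317 in the group labelled IRF2 and 5.38 ± 0.246 in the GFP control group (SD, n = 3 each).

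Downstream of the cytokines, receptor genes changed in both directions. Of 8 IL-1 family receptor genes, 7 had a probe set and 4 were tested; 2 passed as higher, 1 of them Il1rap, which was above the filter only through its brighter group, and 1 fell. Il18rap, the signalling partner chain of the interleukin 18 receptor, read 154, 151 and 145 on the arrays labelled IRF2, against 120, 113 and 114 on the GFP control arrays (log2 fold change 0.38, SE 0.05, limma adjusted p = 1.08e-05). Il18r1, the binding chain, was under the filter at 4.43 to 5.06 on the arrays labelled IRF2 and 3.95 to 4.51 on the GFP control arrays, within the range of the tryptophan controls. Il1rap, the shared partner chain of several receptors of the family, read 19.5, 28.0 and 18.3 on the arrays labelled IRF2, against 10.5, 13.1 and 9.83 on the GFP control arrays (0.96, SE 0.14, adjusted p = 8.39e-05). Its control mean of 11.1 was under the filter of 11.3, and it came to 0.48 with 16 added before the log and 0.40 when its 5 probe sets were averaged. Il1r1, the signalling receptor of interleukin 1, fell by 0.20 (SE 0.06, adjusted p = 0.0184), a call that went when its 2 probe sets were averaged (adjusted p = 0.321), without GFP control replicate 3 (0.102) and without IRF2 replicate 2 (0.0862). Sigirr, a negative regulator of the family, gave -0.06 (SE 0.04) and did not pass.

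Of 6 other IL-1 family ligand genes, 5 had a probe set and 3 were tested. Il33, the alarmin interleukin 33, read 305, 313 and 321 on the arrays labelled IRF2, against 195, 210 and 213 on the GFP control arrays (log2 fold change 0.60, SE 0.04, limma adjusted p = 1.83e-08). Il1f9, the gene of interleukin 36 gamma, rose by 0.28 (SE 0.09, adjusted p = 0.024; 0.12 with 16 added before the log), to a mean of 14.6 ± 0.730 in the group labelled IRF2, against 12.1 ± 0.658 in the GFP control group (SD, n = 3 each). That call went without GFP control replicate 1 (adjusted p = 0.0927) and without IRF2 replicate 2 (0.0967). Il1f10 gave 0.09 (SE 0.07) and did not pass. Of 10 receptor signalling genes, 9 were tested, 1 rose and 3 fell. Irak3, which encodes a brake on signalling by IL-1 and Toll-like receptors, fell by 0.66 (SE 0.07, adjusted p = 1.96e-06), reading 44.6, 46.3 and 42.4 on the arrays labelled IRF2, against 70.8, 65.3 and 74.8 on the GFP control arrays. Its 2 probe sets gave -0.66 and -0.67. Irak2, a kinase of the same pathway, rose by 0.24 (SE 0.05, adjusted p = 0.00174), and the kinase gene Map3k7 and its partner Tab2 fell by 0.16 and 0.13 (SE 0.03 and 0.04). The call of Map3k7 went when its probe sets were averaged (adjusted p = 0.0639), and that of Tab2 without the intensity trend and in 3 of the 6 fits without 1 array (those without GFP control replicate 2, GFP control replicate 3 and IRF2 replicate 1, with adjusted p of 0.0524 to 0.0849).

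Over the 8 pathway lists, 67 genes in all, 39 were tested, 8 passed as higher, Il1rap included, and 6 fell. These counts stand beside 16.5% and 19.8% of all tested genes, and the median log2 fold change of the 39 was 0.01.

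**Figure D4:**
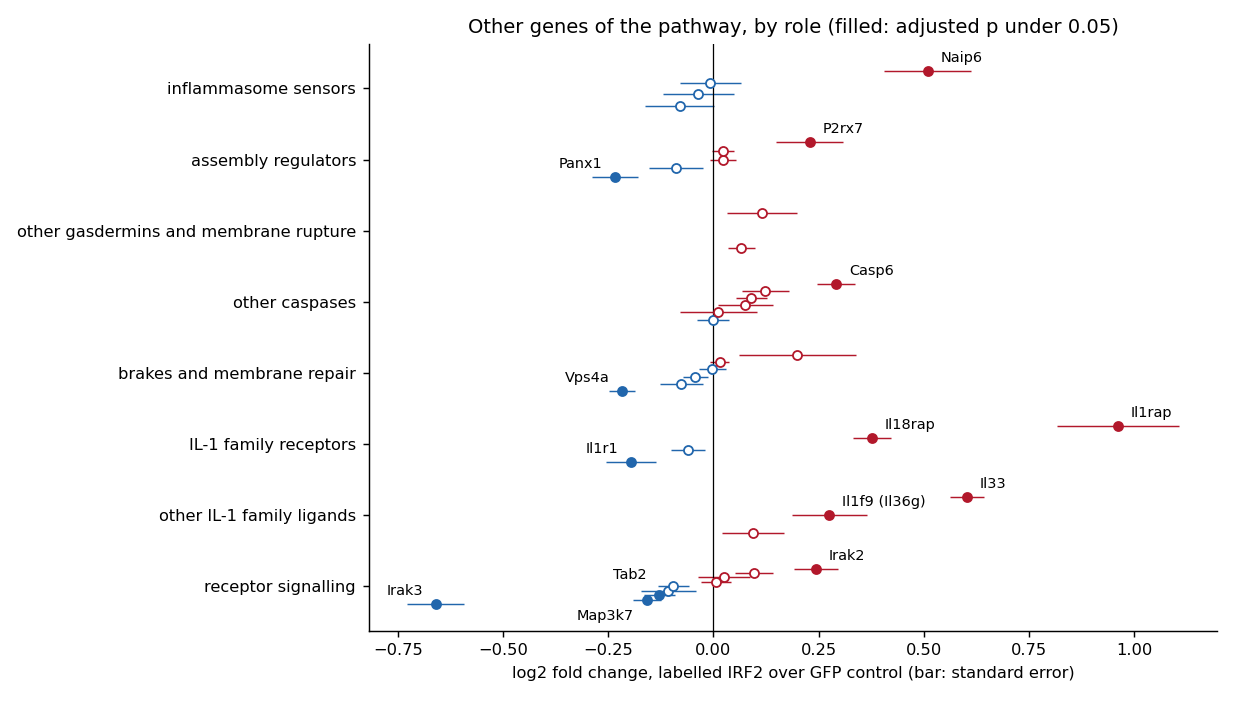
Log2 fold change and SE, labelled IRF2 over GFP control, of the 39 tested genes of 8 pathway lists, a row for each list; filled points passed an adjusted p of 0.05. Il1rap (0.96) stands farthest right, but came to 0.48 with 16 added before the log and 0.40 with its probe sets averaged, below Il33 (0.60; 0.57 with 16 added), and Irak3 (-0.66) stands farthest left.

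The genes whose profile over the 6 arrays was most like that of Il18 were sought by the Euclidean distance between log2 profiles, each centred on its own mean. Of 12794 other tested genes, the nearest to Il18 were Serpinb9, a granzyme B inhibitor (distance 0.51), the interferon-induced gene Ifi27 (0.61), Casp1 (0.62), the carbonic anhydrase gene Car3 (0.65) and the cathepsin gene Ctso (0.67). Nearest to Casp1 were Serpinb9 (0.39), the matrix gene Sparc (0.44), the peptide transporter gene Tap2 (0.45), Ifi27 (0.45) and Car3 (0.46). Il18 ranked 15th from Casp1. Gsdmd ranked 30th from Il18 and 26th from Casp1, and Casp4 140th and 161st, whereas the other 4 tested members ranked 2242nd or further from both. With 2 groups of arrays this distance mostly reads the size of the change.

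Genes beside the members that rose were also read. Of the 3 genes with a probe set on either side of Il18, of the Casp1 and Casp4 pair and of Gsdmd, 18 in all, 15 were tested, 3 rose and 2 fell, with log2 fold changes of the 15 between -0.36 and 0.28. Over all tested genes 36.3% passed, 16.5% higher and 19.8% lower, so calls among the neighbours were about as common as elsewhere. Near Il18, Pts rose by 0.23 (SE 0.06, limma adjusted p = 0.0061). Bco2, next to Il18 and under the filter, averaged 11.9 on the arrays labelled IRF2 and 8.52 on the GFP control arrays. In the fit without the filter, where 24.9% of genes passed, Bco2 was higher by 0.47 (SE 0.12, limma adjusted p = 0.0105). Near the caspase pair, Kbtbd3 and Pdgfd both rose by 0.28 (SE 0.09 and 0.08, limma adjusted p = 0.0225 and 0.0152). Near Gsdmd, on chromosome 15, Rhpn1 fell by 0.36 (SE 0.09) and Eef1d by 0.06 (SE 0.02). The 10 that did not pass were Plet1, Sdhd, Timm8b, Msantd4, Gria4, Casp12, Top1mt, Zc3h3, Naprt and Tigd5, with values from -0.12 to 0.12, and Tex12 and Ddi1 lay under the filter.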

How the data were processed

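Total RNA of 6 samples was read on Affymetrix 3' expression arrays. The authors deposited intensities on a linear scale, from 2.59 to 14181, for each probe set and array; the submitters' processing notes list MAS5, its role unstated. Array medians lay between 18.2 and 18.7, so no further scaling was applied. The platform annotation pairs 34945 of 45037 probe sets other than controls with 1 gene symbol; those with several (932) or none (9160) stayed without a name; 34741 of the named were found in RefSeq's GRCm38.p6 gene table, used for symbols and gene order. The fits used log2 intensity and limma 3.58.1 under R 4.3.3 (lmFit, eBayes with an intensity trend), with group as the only term and 4 residual degrees of freedom, two-sided, with Benjamini-Hochberg adjustment over all genes or probe sets in the fit. The fit was tested on simulated data. Figures were drawn with matplotlib 3.10.9.

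The members, gene lists and motifs were chosen with earlier results of these data known. Genes are named by rule: all members, up to 4 genes of each list with the smallest p, the 5 genes nearest to Il18 and to Casp1, and 3 chromosomal neighbours on either side; Naip2, Naip5, Serpinb1a, Il18r1 and the marker values were added after they were seen. Alternatives were quantile normalization, 16 added before the log, no filter, a filter at the 60th percentile, the mean of probe sets, no intensity trend, a replicate block, and leaving out each array.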

Additional observations from a re-analysis of the deposited data

How the results depend on the processing

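Between 5 and 6 members passed under each alternative except the filter at the 60th percentile, which left 4, since Casp1 and Casp4 were then not tested. Of 101 re-computed member values, 99 kept their direction and their side of the threshold; the exceptions were Gsdme with its probe sets averaged (-0.04) and Il18bp, which ran from -0.052 to 0.21 when each array was left out. Among other pathway genes, Nlrp3 ran from -0.075 to 0.0079 and Aim2 from -0.051 to 0.048 in those runs, and Tnfaip3, a brake on NF-kappaB, gave 0.0019 in the mean of its probe sets in place of -0.08, none of them called; the cause was not tested. Of 382 re-computed values of 30 genes, Irf2 and the tested genes named from the pathway lists, 354 kept direction and side of the threshold. Of the rest, 18 lost a call, 6 gained one (Casp8, 3 times, Ninj1, Casp12 and Trim30a) and 4 turned sign. Among pathway list genes outside those 30, Tollip and Myd88 also passed under an alternative (lowest limma adjusted p of 0.00284 and 0.0403). So did Fcgr1 of the macrophage and leukocyte markers (lowest limma adjusted p of 0.0301). Over all pathway list genes, the count of 14 calls ran from 11 to 16. Same-numbered arrays did not deviate together (correlations of 0.07, -0.08 and -0.0008), so the numbers were not taken as pairs; with the replicate block 6 members, 8 member probe sets and 15 pathway genes passed. Intensities near the tryptophan controls limit what can be said of Il1a and Pycard.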
